A study of Bos taurus with 4 samples.

Results

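The widest stretches of H3K27me3 on the autosomes of bovine embryonic stem cells are described here. They are regions of at least 50 kb on chromosomes 1 to 22 and 24 to 29, and 621 of the 10254 H3K27me3 regions on these chromosomes reached that width, a share of 6.06%. The whole genome held 15091 H3K27me3 regions. The members were chosen by the width of regions joined from peaks of both H3K27me3 libraries, not by the width in each library. Their number, width and H3K27me3 content are therefore descriptions and were not tested. H3K4me3 played no part in the choice.

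H3K27me3 is the methyl mark that Polycomb repressive complex 2 writes on histone H3. The complex also binds its own mark, which lets a domain spread along the chromatin fibre from a nucleation site, and broad domains of this kind are known from HOX clusters and other genes for developmental regulators. H3K4me3 marks CpG-rich and active promoters. Where both marks lie over the same promoter of a pluripotent cell the chromatin is called bivalent, a state known from lineage genes that are silent but can be induced.

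The cells were NBFR-bESCs, grown on mouse embryonic fibroblast feeders in N2B27-based medium with 1% BSA, FGF2 at 20 ng/mL and the Wnt pathway inhibitor IWR-1 at 2.5 µM. The labels give a single female blastocyst, produced in vitro and taken at day 7, as the origin of the line, which was established after 4 passages, whereas the paper speaks of independent lines, and which line gave which replicate is not stated. Feeders were depleted with magnetic beads before CUT&RUN, in which an antibody guides a nuclease to the marked chromatin and the released DNA is sequenced. There were 2 libraries for H3K4me3 and 2 for H3K27me3, with about 50000 cells each, and no untreated or control group. Peaks of a mark that had 1 bp or more in common with the second library of that mark were kept, and those of the pair of libraries were joined into regions, called H3K27me3 regions and H3K4me3 regions.

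On the chromosomes used, the lists held 15046 and 14221 H3K27me3 peaks in replicates 1 and 2, and 21407 and 19839 H3K4me3 peaks. The number of reads behind them is unknown, so where no peak is listed the mark may still be present. With 2 libraries per mark, a two-sided exact permutation test could not go below p = 0.333, and values of each library are given in place of a test. Intervals on shares are 95% Wilson intervals, which cover counting error only and take neighbouring domains as independent.

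The wide domains were few, but held much of the mark. Together they spanned 60.1 Mb, which was 32.4% of the 185 Mb under H3K27me3 regions and 2.47% of the length of these chromosomes. Their median width was 76.0 kb, with a middle range from 58.4 to 116.8 kb, against a median of 10.4 kb over all H3K27me3 regions of the same chromosomes. Without replicate 2 the number of domains was 400, without replicate 1 it was 490, and it was 320 when only bases under peaks of both libraries were kept. Of the 621 domains, 203 reached 100 kb, 36 reached 200 kb and 6 reached 300 kb.

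The widest domain lay on chromosome 5 of ARS-UCD1.2, at 25861801 to 26326800, and spanned 465 kb. Replicate 2 covered it with 1 peak, and replicate 1 with 2 peaks, the wider of 273.6 kb. It held 11 H3K4me3 regions. The next was a domain of 445.2 kb on chromosome 7, at 11935801 to 12381000. It was assembled from 11 peaks in replicate 1, none wider than 146.2 kb, and from 4 peaks in replicate 2, and held 1 H3K4me3 region. A further domain on chromosome 5, at 27180401 to 27623400, measured 443 kb and also held 1. Domains of similar width thus differed widely in H3K4me3. On chromosome 7 at 50957201 to 51348400, a domain of 391.2 kb held 8 H3K4me3 regions and lay 3896.4 kb from the nearest other wide domain. On chromosome 22 at 54580601 to 54967400, one of 386.8 kb held 2 and lay 4.6 kb from its neighbour. The sixth, of 343.2 kb on chromosome 13 at 40728601 to 41071800, held 4. The other domains among the 10 widest, of 280.4 to 296.8 kb, lay on chromosomes 13, 19 and 26 and held 0 to 9 H3K4me3 regions.

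The limit of 50 kb cut through a continuous range of widths. There were 22 domains from 50 to 51 kb, and 24 regions from 49 to 50 kb were left out. The narrowest domain, of 50.0 kb on chromosome 18 at 63643201 to 63693200, was 1 peak in each replicate, and the next 4 measured 50.2 kb. The 5 regions nearest below the limit, on chromosomes 9, 18 and 29, all measured 49.8 kb, and 3 of them held H3K4me3 regions.

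Both replicates covered nearly the whole length of the domains, although they divided it differently. Peaks of replicate 1 lay over 95.0% of the summed domain length and those of replicate 2 over 97.7%, and 92.7% was under peaks of both. For H3K27me3 regions of 20 to 50 kb, of which there were 1675, the shares were 88.2% and 94.1%. All these regions were joined from peaks of the same libraries, so high coverage is partly built in. An edge difference of a given size also takes up less of a wider region. The least covered domain had 63.3% of its length under peaks in replicate 1, and the least covered one in replicate 2 had 71.2%. The highest-scoring peak of a domain stood at a median percentile of 97.9 and 97.6 of its own list. The score is the authors' value per peak, has no stated meaning and was used as a rank within a list. Its relation to peak width, by which the domains were chosen, was not tested.

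A domain was often broken into several peaks. Replicate 1 formed it from 1 peak in 146 of the 621 domains, or 23.5%, and replicate 2 in 310, or 49.9%. Both replicates had 1 peak in 88 domains and both had several in 253. The median was 2 peaks per domain in either replicate, with at most 11 in replicate 1 and 9 in replicate 2. A peak that was itself at least 50 kb wide was present in both replicates in 296 domains (47.7%, interval 43.8% to 51.6%), in replicate 2 alone in 171 and in replicate 1 alone in 56. In the remaining 98 domains neither library had such a peak, and the width arose only when the overlapping peaks of both were joined. These 98 had a median width of 56.8 kb, and the widest of them 134.8 kb. The plot of the widest peak per domain shows this split between the libraries.

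**Figure D1:**
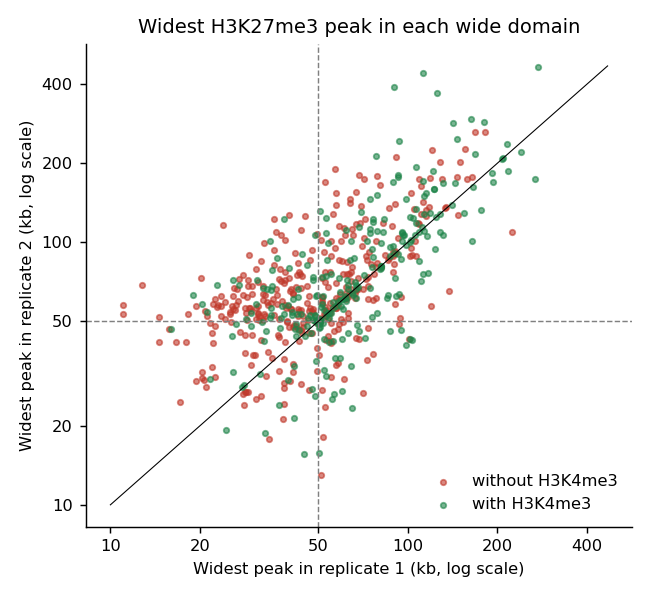
Each point is 1 of the 621 wide domains, placed by the width of its widest H3K27me3 peak in replicate 1 (x axis, kb, log scale) and in replicate 2 (y axis, kb, log scale). Dashed lines mark 50 kb, the solid line marks equal widths, and colour gives the presence of an H3K4me3 region. The upper right field holds 296 domains, the upper left 171, the lower right 56 and the lower left 98.

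Most outer edges lay close together in both libraries. The domains had 1242 edges, and the median distance between the edge in replicate 1 and that in replicate 2 was 600 bp, or 3 windows of the 200 bp in which peaks were called. At 209 edges (16.8%) the replicates ended in the same window, 816 (65.7%, interval 63.0% to 68.3%) lay within 1 kb and 1192 (96.0%) within 5 kb. The largest distance was 14.4 kb. In regions of 20 to 50 kb the median distance was 800 bp, and 56.9% of 3350 edges (interval 55.2% to 58.6%) lay within 1 kb. The edges are those of the peaks that set the widths, so these shares are descriptions and were not tested against each other. Replicate 2 reached further out at 598 edges of the wide domains and replicate 1 at 435. Both edges lay within 1 kb in 278 domains (44.8%), and 22 domains had the same first and last window in both libraries.

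**Figure D2:**
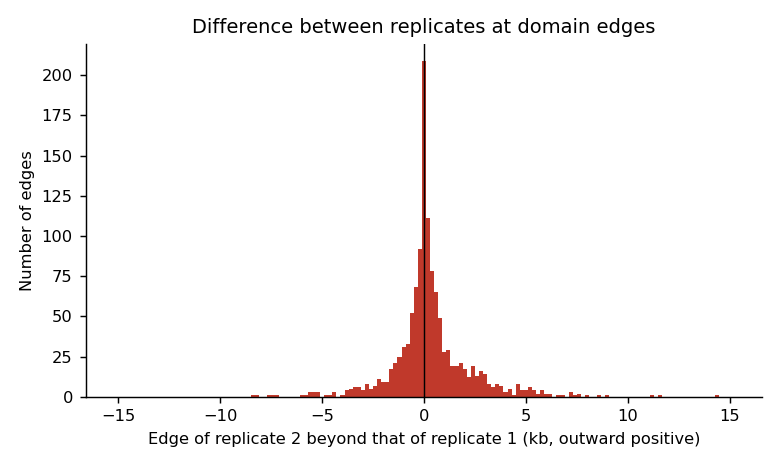
Histogram of the 1242 edges of the wide domains (y axis, number of edges per 200 bp step) by how far the edge of replicate 2 lay beyond that of replicate 1 (x axis, kb, positive when replicate 2 reached further out). Most edges sit near 0, with 65.7% within 1 kb on either side, and the longest difference is 14.4 kb.

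Of the 5 domains with the largest differences, 3 had no H3K4me3 region, and in all 5 the edge of replicate 2 was the outer one. The right edge of a domain of 53.2 kb on chromosome 19, at 38168001 to 38221200, lay 14.4 kb further out in replicate 2, and replicate 1 had only 2 peaks there, the wider of 18.2 kb. On chromosome 21, at 63762001 to 63847000, the left edge was 11.6 kb further out in replicate 2. On chromosome 28 at 2731601 to 2842200 it was 11.2 kb further out in replicate 2, in a domain of 110.6 kb with 3 H3K4me3 regions. The remaining domains lay on chromosome 25 at 11803801 to 11854800 and chromosome 18 at 62784001 to 62871200, with differences of 9.0 and 8.6 kb at the left edge.

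Wide domains were unevenly spread over the chromosomes. Their density ranged from 0.0574 per Mb on chromosome 12, which held 5, to 0.945 per Mb on chromosome 25, which held 40, with a median of 0.228 over the 28 chromosomes. Chromosome 18 held the most, 50 domains at 0.760 per Mb, followed in density by chromosomes 26 (0.654), 19 (0.567), 21 (0.530) and 17 (0.520). The 10 chromosomes under 70 Mb held 41.1% of the domains on 22.9% of the length. Of these, chromosomes 22, 24 and 28 were below the median density, at 0.181, 0.0965 and 0.153 per Mb. The share of narrower H3K27me3 regions on the 10 chromosomes is not given here. On chromosome 25 the domains took up 8.79% of the chromosome and on chromosome 10 only 0.554%.

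**Figure D3:**
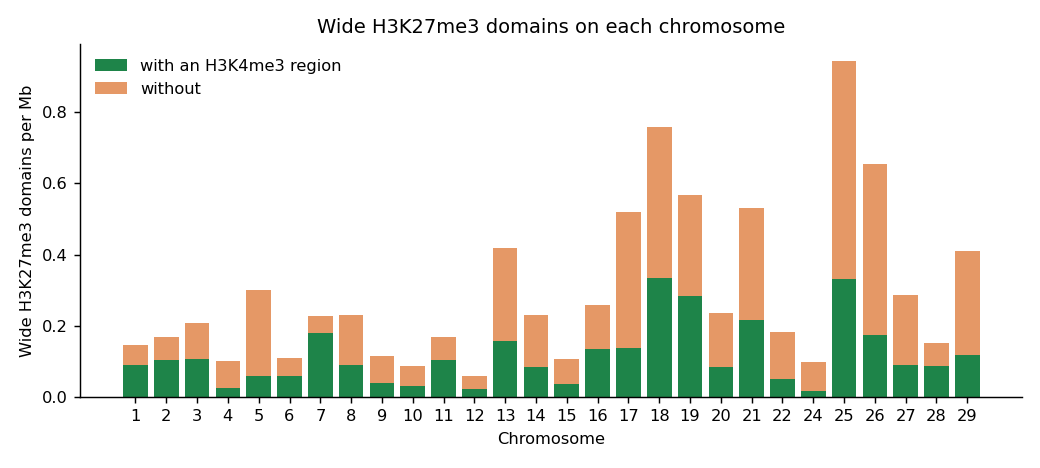
Wide H3K27me3 domains per Mb (y axis) on chromosomes 1 to 22 and 24 to 29 (x axis), divided into domains with an H3K4me3 region (green) and without one (orange). Chromosome 25 stands highest at 0.945 per Mb and chromosome 12 lowest at 0.0574, and most of the height on chromosomes 5, 17 and 26 is without H3K4me3.

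The distal ends of chromosomes held many of them. Within 5 Mb of the last peak listed on a chromosome lay 158 of the 621 domains, or 25.4%, against 14.4% of the 9633 narrower H3K27me3 regions, while these windows made up 5.75% of the chromosome length. On chromosome 9 the median place of its 12 domains was 96.8% of the way along the chromosome, and on chromosome 12 98.4%. Chromosomes 14 and 7 were unlike these, with medians at 5.08% and 15.6%.

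Along a chromosome the domains lay in groups. Of the 621, 519 (83.6%, interval 80.5% to 86.3%) had another wide domain within 1 Mb and 477 (76.8%) within 500 kb. The median gap between neighbours was 216 kb whereas the mean was 3084 kb, and 465 of the 593 gaps (78.4%) were shorter than the mean gap of their own chromosome. No random placement of domains was set beside these values, so they describe the spacing and do not test it. The shortest gap was 0.2 kb and the longest 85830 kb. Of the H3K27me3 regions of 20 to 50 kb, 70.5% lay within 1 Mb of a wide domain, and of those under 20 kb 52.3%.

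Many of the gaps were short. In 108 gaps (18.2%) neighbours were at most 5 kb apart, with a median of 1600 bp, and 3 of these 108 short stretches held an H3K4me3 region. Gaps of up to 100 kb numbered 231 and added up to 5.35 Mb, of which 66.8% was under narrower H3K27me3 regions. H3K4me3 peaks covered 1.62% and 1.56% of them in replicates 1 and 2.

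When domains with gaps of at most 1 Mb were taken as a run, 102 domains stood alone, 36 runs had 2 domains and 82 runs had 3 or more. The last held 447 domains, or 72.0% of all, and 8 runs had 10 or more. The longest run lay on chromosome 26 from 45649001 to 50914200, where 21 domains followed each other over 5.27 Mb. H3K27me3 peaks covered 63.9% of this run in replicate 1 and 66.0% in replicate 2, and 3 of the 21 domains held an H3K4me3 region. Chromosome 25 had a run of 13 domains from 6219401 to 9004800, with H3K4me3 regions in 2. Chromosome 17 had a run of 12 from 58939601 to 61035200, covered by H3K27me3 for 80.4% and 84.6% of its 2.10 Mb, with H3K4me3 regions in 3 of them. A run of 10 domains on chromosome 5, from 117299801 to 119164400, held no H3K4me3 region at all. Other runs of this size held more. A run of 12 on chromosome 18, from 48211001 to 52581200, had H3K4me3 regions in 5 domains. A run of 10 on chromosome 2, from 132178201 to 135035600, had them in 6. The remaining runs of 10 or more, of 11 domains on chromosome 20 and 10 on chromosome 17, had them in 2 and 3. Runs could also be nearly continuous. From 104363601 to 105577800 on chromosome 5, 8 domains filled 90.9% of 1.21 Mb, and from 15896601 to 17286000 on chromosome 19, 9 domains filled 87.6% of 1.39 Mb.

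H3K27me3 ended at the edges, as their definition requires, and was frequent again a few kb further out. H3K27me3 covered 94.9% and 97.3% of the stretch from 5 to 10 kb inside the edges, in replicates 1 and 2. In the first 5 kb outside, 33.0% and 35.8% was covered. From 5 to 10 kb outside the covered share was again higher, 59.8% and 63.4%, and at 45 to 50 kb it was 55.5% and 57.6%, against 7.02% and 7.59% of all autosomal sequence. These flanks include neighbouring wide domains. With neighbours included, the 50 kb flanks were covered for 56.0% and 59.3% around domains of 50 to 100 kb and for 56.1% and 57.5% around those of 100 kb or more. Measured in the same way, it was 43.3% and 47.0% around H3K27me3 regions of 20 to 50 kb and 22.4% and 24.9% around those under 10 kb. With neighbouring wide domains cut away, 42.8% and 45.6% of the flanks of the wide domains was covered.

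**Figure D4:**
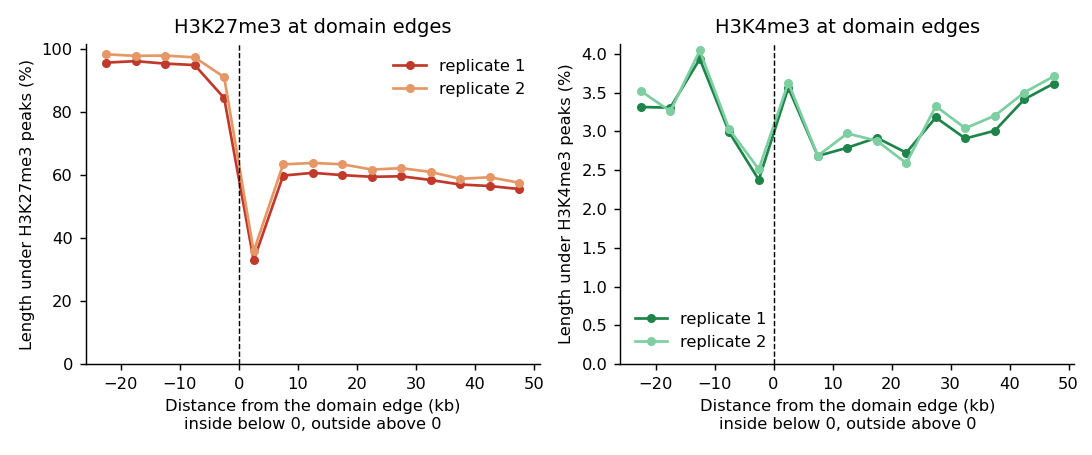
Share of sequence under H3K27me3 peaks (left, %) and under H3K4me3 peaks (right, %) in steps of 5 kb from the edges of the wide domains (x axis, kb, inside below 0 and outside above 0), for each library. H3K27me3 falls from 84.4% and 91.0% in the last 5 kb inside to 33.0% and 35.8% in the first 5 kb outside and then rises again, while H3K4me3 stays between 2.38% and 4.04% in all steps.

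H3K4me3 was present in a minority of the wide domains. Of the 621, 254 (40.9%, interval 37.1% to 44.8%) overlapped an H3K4me3 region, against 31.9% of all H3K27me3 regions on these chromosomes and 33.3% (interval 31.0% to 35.5%) of those of 20 to 50 kb. From the H3K4me3 peaks of replicate 1 alone it was 278 domains (44.8%, background 33.4%), and from those of replicate 2 alone 267 (43.0%, background 32.6%). Both H3K4me3 libraries had a peak in 251 domains, replicate 1 alone in 27 and replicate 2 alone in 16, so that 327 domains (52.7%, interval 48.7% to 56.6%) had none in either library. With only those H3K4me3 peaks whose score reached the median of their list, the share was 17.9% against a background of 18.7%, so that the wide domains were above the background with all peaks and not with the higher-scoring ones.

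A wider region offers more room for an overlap. Per length the domains held more H3K4me3 than all sequence of these chromosomes. They held less than narrower H3K27me3 regions and than their own flanks with neighbouring wide domains cut away. H3K4me3 peaks covered 2.74% and 2.80% of their length in replicates 1 and 2, against 2.41% and 2.42% of all sequence of these chromosomes. They covered 5.50% and 5.59% of the H3K27me3 regions of 20 to 50 kb. Of the 50 kb flanks of the domains, with neighbouring wide domains cut away, they covered 3.95% and 4.03%. Each of these differences from the domains was larger than that between the replicates. The number of H3K4me3 peaks per Mb was 13.8 and 12.5 in the domains and 8.79 and 8.15 in all sequence. It was 22.8 and 21.2 in the regions of 20 to 50 kb and 16.8 and 15.6 in these flanks. With neighbours included, the flanks were covered for 2.66% and 2.75% around domains of 50 to 100 kb. Around those of 100 kb or more it was 3.93% and 3.99%. The covered share was 3.94% and 4.07% in domains of 50 to 75 kb and 1.95% and 1.90% in those of 200 kb or more, while the share of domains with any H3K4me3 region was 38.3% of 303 and 63.9% of 36. Between these widths that share was 33.9% of 115 at 75 to 100 kb, 43.7% of 119 at 100 to 150 kb and 50.0% of 48 at 150 to 200 kb. Of the H3K27me3 regions under 5 kb, 37.3% of 1106 overlapped an H3K4me3 region.

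The H3K4me3 that lay in the domains was mostly enclosed. Of the 650 H3K4me3 regions that overlapped a domain, 605 (93.1%) were wholly inside it and 45 crossed an edge. Of the 605, 307 (50.7%) lay in the outer 50% of the domain, and the median distance from the nearer edge was 21.8 kb. H3K27me3 peaks covered 98.8% and 97.9% of the H3K4me3 region length in the domains, against 96.2% and 97.7% of all sequence in the domains that held H3K4me3.

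H3K4me3 peaks in wide domains were narrower and ranked lower than those away from H3K27me3. Whether rank follows width was not tested, so these need not be separate properties. In replicate 1 the 830 peaks in wide domains had a median width of 1600 bp and a median rank at percentile 38.1 of their list, and the 16362 peaks with no H3K27me3 region had medians of 2400 bp and 59.1. In replicate 2 the medians were 1900 bp and 34.8 for 754 peaks, against 2800 bp and 59.9 for 15047. Peaks in H3K27me3 regions of 20 to 50 kb were between these, with 2000 and 2200 bp and percentiles 46.0 and 43.7. They recurred almost as often as others, with 84.2% of the replicate 1 peaks in wide domains (interval 81.6% to 86.5%) overlapping one of replicate 2, against 84.8% away from H3K27me3. For replicate 2 the shares were 90.5% and 92.1%.

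H3K4me3 was concentrated in few domains. There were 117 domains with 1 H3K4me3 region, 59 with 2, 22 with 3, 18 with 4 and 38 with 5 or more, and these 38 held 277 of the 650 regions (42.6%). The domain with the most, 19, was that of the HOXA cluster on chromosome 4. Next came a domain of 99.2 kb on chromosome 2, at 20742601 to 20841800, with 17. It was 1 H3K27me3 peak in each replicate, and H3K4me3 peaks covered 33.1% and 33.9% of it. Of its 19 H3K4me3 peaks in replicate 1, 1 ranked above the median of its list, and of its 18 in replicate 2 none did. The widest domain, on chromosome 5, held 11 H3K4me3 regions over 5.29% and 5.12% of its length. A domain of 239.8 kb on chromosome 26, at 21852001 to 22091800, also held 11, and one of 90.8 kb on chromosome 3, at 21064001 to 21154800, held 10 over 29.1% and 30.6% of its length. In all 5 of these domains the median H3K4me3 peak ranked below the middle of its list, at percentiles from 32.4 to 38.8.

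The 367 domains without an H3K4me3 region were only a little narrower, with a median of 74.0 kb against 81.2 kb, and added up to 32.9 Mb. The widest lay on chromosome 13 at 55203201 to 55483600 and spanned 280.4 kb, with no H3K4me3 peak in either library. The domain of 267 kb on chromosome 17, at 44748601 to 45015600, had an H3K4me3 peak of 1.2 kb in replicate 2 alone. A domain of 237.4 kb on chromosome 17, at 46026201 to 46263600, and one of 235.4 kb on chromosome 27, at 35842401 to 36077800, had none in either. The fifth, of 231 kb on chromosome 12 at 85875001 to 86106000, had a peak of 0.8 kb in replicate 2 alone.

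Domains that stood alone held H3K4me3 more often than grouped ones. An H3K4me3 region was present in 64 of the 102 domains with no other within 1 Mb (62.7%, interval 53.1% to 71.5%), and in 190 of the 519 with one (36.6%, interval 32.6% to 40.8%). The grouped domains were not alike. With another within 100 kb the share was 28.5% of 365 (interval 24.1% to 33.3%). With the nearest at 100 kb to 1 Mb it was 55.8% of 154 (interval 48.0% to 63.5%), an interval that overlapped that of the lone domains. The share was 50.0% in runs of 2, 37.4% in runs of 3 to 9 and 24.2% in runs of 10 or more. Each H3K4me3 library alone gave the same order, from 68.6% and 64.7% of the lone domains to 29.3% and 25.3% of those in runs of 10 or more in replicates 1 and 2. The median width was 68.8 kb for lone domains, 67.3 kb in runs of 2, 79.2 kb in runs of 3 to 9 and 79.8 kb in runs of 10 or more. H3K4me3 peaks covered 7.12% and 7.35% of the lone domains and 1.15% and 1.11% of those in the longest runs.

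**Figure D5:**
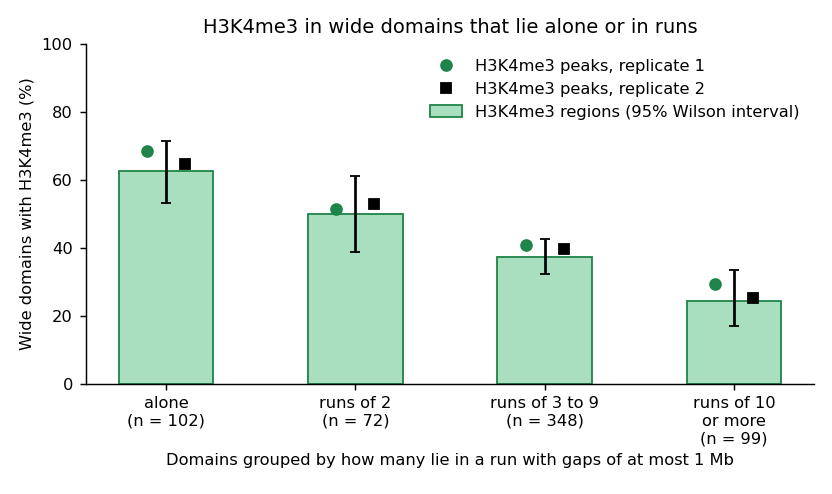
Share of wide domains with H3K4me3 (y axis, %) for domains alone, in runs of 2, of 3 to 9 and of 10 or more (x axis). Bars use the H3K4me3 regions with 95% Wilson intervals, and circles and squares use the H3K4me3 peaks of replicates 1 and 2 alone. The bars fall from 62.7% to 24.2%, and the points of both libraries fall in the same order.

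The difference was also present within chromosomes. Of the 20 chromosomes with at least 3 domains of each kind, 17 had a higher share among the lone domains, and chromosomes 10, 16 and 27 had a lower one. Away from the distal ends it was 64.8% of 91 lone domains and 42.2% of 372 grouped ones, and within 5 Mb of the ends 24.1% of all 158 domains held H3K4me3. H3K4me3 inside a domain also went with H3K4me3 around it. The 50 kb flanks of domains with H3K4me3, neighbouring wide domains included, were covered by H3K4me3 peaks for 5.24% and 5.40%. Those of domains without it were covered for 1.58% and 1.59%. The part of local H3K4me3 density in the difference was not tested.

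Of the loci drawn in the study's track views that were looked up here, HOXA9, FOXA2 and TBX3 lay in wide domains by places read by eye from the axes. HOXA9 belongs to the HOXA cluster, whose genes pattern the body axis. In the RefSeq gene table, which is of ARS-UCD2.0 and was used here for gene order only, it is flanked by HOXA10, HOXA11 and HOXA13 on one side and by HOXA7 and further HOXA genes on the other. Its domain spanned 153.6 kb on chromosome 4, at 68792601 to 68946200. It was 3 peaks in replicate 1 and 2 in replicate 2, whose outer edges differed by 0.2 and 1.8 kb. H3K4me3 peaks covered 39.1% of it in replicate 1 and 45.2% in replicate 2, and the nearest other wide domain was 27201 kb away.

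FOXA2, a pioneer factor of endoderm, was in a domain without a shared H3K4me3 peak. The domain spanned 220.2 kb on chromosome 13, at 41420401 to 41640600, with 6 peaks in replicate 1 and 2 in replicate 2, and edges that differed by 0.8 and 0.4 kb. Replicate 1 had 1 H3K4me3 peak of 1.4 kb there and replicate 2 had none. It was part of a run of 6 domains, with the nearest neighbour 2.4 kb away. In the gene order of ARS-UCD2.0, NKX2-4, NKX2-2 and PAX1, which encode transcription factors of the ventral neural tube and sclerotome, precede FOXA2.

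TBX3, a T-box transcription factor of limb and heart development, was in a domain of 129.4 kb on chromosome 17, at 60011001 to 60140400. This was 2 peaks in replicate 1 and 1 in replicate 2, with edges 2.4 and 2.0 kb apart. An H3K4me3 peak of 7.4 kb lay in it in both replicates, at percentiles 79.8 and 78.2 of its list, above most H3K4me3 peaks of wide domains, and replicate 2 had another of 1.6 kb. The domain was part of the run of 12 on this chromosome, and TBX5, another T-box gene, is the next gene of the table after TBX3. The other loci drawn did not reach 50 kb. The widest H3K27me3 region was 35.2 kb at GATA6, 25.8 kb at MSX2, 17.8 kb at WNT2 and 7.6 kb at SOX2, and NANOG had none. Genes in the other wide domains were not determined here.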

How the data were processed

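The deposited files were 4 peak lists, 1 per library. Per the paper and the submitters' processing notes, the authors trimmed reads (Trim Galore, cutadapt 1.18), mapped them with BWA to the ARS-UCD1.2 assembly, took out duplicates with Picard and poor alignments with SAMtools 1.7, and called peaks in each library with epic2 in windows of 200 bp, allowing at most 1 gap for H3K4me3 and 5 for H3K27me3. No control library is stated. More allowed gaps make wider peaks, so widths were not compared between marks. The deposited score of each peak is the authors' whole number of unstated meaning and was used only as a rank within a list.

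Marks and replicates came from the sample labels. Positions are counted from 1, and peaks that touched were joined. The domains, lists and comparisons were chosen with earlier results of these data known. Chromosome length was taken to the last peak in any list. Domains named are the 10 widest, the 5 nearest to the limit on each side, runs of 3 or more domains, the 5 with most H3K4me3 regions, the 5 widest without any, and the 5 with the largest edge differences. Among the runs, those printed were picked for their number of domains, or for the share of the run that domains filled, after these values were seen. Genes are those drawn in the study's track views, and the gene table, of another assembly (ARS-UCD2.0), served for gene order alone. No sequence of ARS-UCD1.2 was used here. Overlap steps were tested on simulated data and against bedtools. Tables were handled with pandas 2.3.3 and numpy 2.4.6 in Python 3.11.15, intervals computed with scipy 1.17.1 and plots drawn with matplotlib 3.10.9.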

Additional observations from a re-analysis of the deposited data

Results flagged for a closer look

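Regions of at least 50 kb also lay in sequence that the choice of chromosomes left out, and they are flagged as data outside the comparisons. Chromosome 23 held 36 such H3K27me3 regions, at 0.686 per Mb, and 72.2% of them overlapped an H3K4me3 region. Chromosome X held 493, at 3.55 per Mb, with a median width of 75.6 kb, and 36.5% of them overlapped an H3K4me3 region. Unplaced sequences held 14.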

How the results depend on the processing

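No paired analysis was possible because all values are counts or shares of joined peaks, without a model into which a replicate block could enter. The 621 domains became 320 when only bases covered by both replicates were kept, and 400 to 490 with a replicate left out. The lower number was from replicate 1 alone. The other 6 settings gave from 447 to 884. The share of domains with an H3K4me3 region, 40.9%, was between 40.6% and 46.0% when either replicate was dropped. It was 44.8% with H3K4me3 peaks of replicate 1 alone, 45.8% with regions within 2 kb joined and 17.9% with only the H3K4me3 peaks whose score reached their list's median, where the background was 18.7% in place of 31.9%. The share with another domain within 1 Mb, 83.6%, lay between 79.0% and 82.0% when either replicate was dropped. It was 75.9% with bases of both replicates, 87.4% with regions within 2 kb joined, 87.7% and 80.1% with limits of 40 and 60 kb, and 76.8% within 500 kb and 89.2% within 2 Mb. The mean share of domain length under H3K4me3 peaks, 2.77%, ranged from 2.91% to 3.29% with a replicate left out, and was 3.49% with bases of both replicates, 2.51% with regions joined, and 3.09% and 2.41% with limits of 40 and 60 kb. Edges within 1 kb, 65.7%, were 33.2% for 200 bp, 96.0% for 5 kb, 56.5% with only H3K27me3 peaks at or above the median score and 25.9% when the widest peak of each replicate was compared.

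The ratio of the H3K4me3 share of lone domains to that of grouped ones, 1.71, and its alternatives were chosen after seeing the data. It stayed above 1 in all 14 alternatives. It ranged from 2.04 to 2.13 with a replicate left out, and was 1.96 with bases of both replicates, 1.80 when 50% of a peak had to overlap, 1.97 and 1.35 with limits of 40 and 60 kb, 2.65 with only H3K4me3 peaks at or above the median score, and 2.01 and 1.59 for neighbours within 500 kb and 2 Mb. The cause of these shifts was not tested. Read depth is unknown, so it cannot be said how many breaks within domains, or H3K4me3 peaks listed in 1 library only, come from it.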

Other observations

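Wide H3K4me3 was rare in the domains but present. Of the 650 H3K4me3 regions that overlapped a wide domain, 11 (1.69%) were at least 10 kb wide, against 1.30% of the 13357 with no H3K27me3 region, and the median widths were 2.4 and 3.2 kb. The widest spanned 28.2 kb on chromosome 21 of ARS-UCD1.2, at 10552601 to 10580800, inside a domain of 56.4 kb at 10526801 to 10583200. Its H3K4me3 peak measured 26.0 kb in replicate 1 and 27.4 kb in replicate 2, at percentile 99.9 of the list in both. The next, of 13.6 kb, lay on chromosome 25 at 2619001 to 2632600, in a domain of 66.2 kb with 8 H3K4me3 regions, at percentiles 99.6 and 99.5.

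Domains that were 1 peak in both replicates held H3K4me3 more often than those broken into several peaks in both, 54.5% of 88 (interval 44.2% to 64.5%) against 34.4% of 253 (interval 28.8% to 40.4%), although the former were narrower, with medians of 62.2 and 89.4 kb. The share of domains with H3K4me3 ranged from 16.7% of 6 on chromosome 24 and 19.4% of 36 on chromosome 5 to 80.0% of 25 on chromosome 7. There were 32 domains with no other within 5 Mb, and the most distant was 53.1 Mb from the next.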
